A study of Mus musculus with 12 samples.

Results

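Chromatin regions around 7 genes of the epithelial to mesenchymal transition were described in cell lines of mouse pancreatic cancer, namely Zeb1, Zeb2, Snai1, Snai2, Twist1, Vim and Cdh1. Members were all listed regions that overlapped a fixed window of the mouse build mm9 around each gene. They numbered 276 of the 313566 regions in 11 chromatin immunoprecipitation sequencing lists. The windows were chr18:5540001-5830000 for Zeb1, chr2:44790001-45020000 for Zeb2, chr2:167310001-167420000 for Snai1, chr16:14650001-14760000 for Snai2, chr12:34590001-34700000 for Twist1, chr2:13450001-13560000 for Vim and chr8:109080001-109250000 for Cdh1. No annotation of mm9 was at hand, so a region is placed in a gene's window and not assigned to the gene, its exons or its introns. Protein-coding neighbours in GRCm38 order were Zfp438 and Arhgap12 for Zeb1, Gtdc1 and Acvr2a for Zeb2, Rnf114 and Ube2v1 for Snai1, Efcab1 for Snai2, Ferd3l and Hdac9 for Twist1, Trdmt1 and St8sia6 for Vim, and Cdh3 and Tango6 for Cdh1; whether they reach into a window was not established.

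The study profiled untreated tumour lines grown in F12/DMEM with EGF, each with the genotype KDM6A-KO or KDM6A-WT and with a sex given by the sample title. KDM6A removes methyl groups from H3K27 and belongs to the complexes of the H3K4 methyltransferases MLL3 and MLL4. The cell description of all lines, the WT ones included, says that they came from pancreatic cancer of K6A-null mice, so WT and KO are used as the genotype field gives them. Female WT had 6 lists (H3K4me1, H3K4me3, H3K27ac, H3K27me3, KDM6A and MLL4), female KO had 3 (H3K4me1, KDM6A and MLL4), and male WT and male KO had H3K4me1. Every group was 1 library, so no difference between genotypes has a replicate check and no test was made. The labels do not say whether a line is a clone or how many tumours it came from. Markers of the pancreas or of other lineages could not be checked, since regions carry no gene names. The number in each list is taken as the reads in a region. Reads in regions ranged from 108165 for MLL4 in female WT to 17526099 for H3K4me3, and the sources used here do not give the libraries' total depth.

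Epithelial cells that turn mesenchymal lose cell-to-cell adhesion and gain motility. Zeb1, Zeb2, Snai1 and Snai2 encode zinc finger repressors and Twist1 a basic helix-loop-helix factor that drive this change, largely by repressing Cdh1, the gene of the adhesion protein E-cadherin. The zinc finger factors bind E-boxes such as CACCTG, and Vim, the gene of the intermediate filament protein vimentin, is a common marker of the mesenchymal state. H3K4me1 marks enhancers, H3K4me3 marks promoters and H3K27ac marks active elements, whereas H3K27me3 is the mark of Polycomb repression. Promoters under both H3K4me3 and H3K27me3 are called bivalent and are commonly rich in CpG. In pancreatic cancer the transition is known for its link to invasion.

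Promoter sequences are shown for the members with an entry in the RefSeq promoter table of GRCm38.p6, since H3K4me3 and H3K27me3 met in windows of these genes and the CpG content of a promoter bears on that pairing. The table held 4 of the 7 genes. Each sequence gives the 250 bases before the gene start on the gene's strand, with CpG pairs in capitals. For Zeb2, which has 4 starts in the table, the most upstream is printed.
Snai1: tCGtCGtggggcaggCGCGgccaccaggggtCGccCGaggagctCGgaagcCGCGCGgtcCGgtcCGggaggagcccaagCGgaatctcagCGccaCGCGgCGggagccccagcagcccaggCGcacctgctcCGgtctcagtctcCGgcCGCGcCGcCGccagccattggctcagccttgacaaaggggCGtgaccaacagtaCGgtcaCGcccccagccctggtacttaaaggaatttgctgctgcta
Twist1: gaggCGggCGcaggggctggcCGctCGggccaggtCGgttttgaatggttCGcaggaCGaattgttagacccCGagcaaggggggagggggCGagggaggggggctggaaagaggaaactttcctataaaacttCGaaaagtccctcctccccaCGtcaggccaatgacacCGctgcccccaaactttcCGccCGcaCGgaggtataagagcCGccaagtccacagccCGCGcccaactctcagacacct
Zeb2: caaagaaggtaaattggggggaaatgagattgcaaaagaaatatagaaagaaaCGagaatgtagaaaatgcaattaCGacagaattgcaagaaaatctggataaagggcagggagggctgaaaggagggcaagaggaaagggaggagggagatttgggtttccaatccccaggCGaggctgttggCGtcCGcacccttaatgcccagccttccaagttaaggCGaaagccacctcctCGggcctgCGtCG
Vim: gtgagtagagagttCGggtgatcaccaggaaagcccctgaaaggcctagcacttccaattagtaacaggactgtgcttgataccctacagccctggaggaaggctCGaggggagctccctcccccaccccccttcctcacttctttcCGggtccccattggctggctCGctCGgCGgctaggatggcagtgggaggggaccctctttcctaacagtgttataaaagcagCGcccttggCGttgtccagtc
In GRCm38.p6 these lie at chr2:167537945-167538194 on the plus strand for Snai1, chr12:33957421-33957670 on the plus strand for Twist1, chr2:45117443-45117692 on the minus strand for Zeb2 and chr2:13574061-13574310 on the plus strand for Vim.

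The Snai1 promoter held 27 CpG pairs, an observed over expected CpG ratio of 0.882, and 70% G and C. Twist1 followed with 18 pairs and a ratio of 0.740, and the printed Zeb2 start had 9 pairs and a ratio of 0.633. Vim had 8 pairs and a ratio of 0.376, close to the median of 0.373 over all 32851 promoters of the table. Snai1, Twist1 and this Zeb2 start are thus above the median promoter and Vim is beside it, while the other Zeb2 starts had ratios of 0.347, 0.375 and 0.675. The E-box pattern CANNTG, which reads the same on both strands, occurred among the printed sequences in Snai1 alone, as a CACCTG that starts at base 125 of the 250. Over all promoters of this length, 66.2% held CANNTG and 17.2% held CACCTG or its complement CAGGTG. Because the listed regions are in mm9, whether these bases lie inside a region was not established.

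In female WT the 7 windows fell into different mixtures of marks. Cdh1 was rich in H3K27ac and H3K4me3 with no H3K27me3 listed, Snai1 and Vim had broad H3K27me3 together with acetylated stretches, and Twist1 had H3K4me3 and H3K27me3 but no H3K27ac. H3K4me3 was listed in all 7 windows, where 53.4% to 68.7% of genome tiles as long as the windows (110 to 290 kb, each with at least 1 region of any list) held such a region. H3K27ac was listed in 6 windows, Twist1 being the exception, against 53.8% to 66.5% of tiles. Among tiles that, like all 7 windows, held H3K4me3, 87.0% to 88.8% held H3K27ac, so 6 of 7 is no excess. H3K27me3 was listed in 5 windows, all but Snai2 and Cdh1, against 46.4% to 57.2% of tiles and 54.1% to 68.5% of those with H3K4me3.

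**Figure D1:**
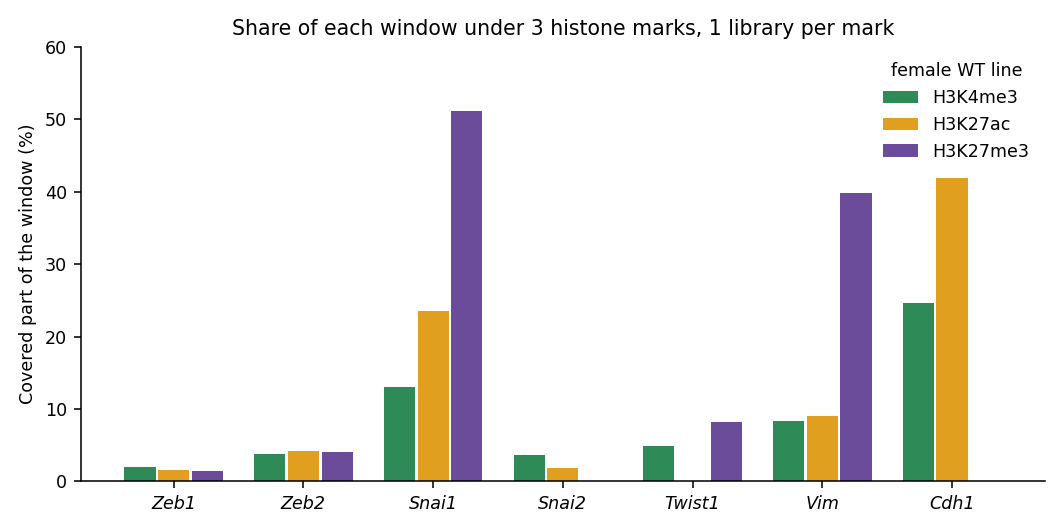
Share of each window, in percent, covered by listed regions of H3K4me3, H3K27ac and H3K27me3 in the female WT line, with 1 library per bar. The H3K27me3 bars stand at 51.1% for Snai1 and 39.8% for Vim and at 0% for Snai2 and Cdh1, and the H3K27ac bar is tallest at Cdh1, with 41.9%.

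The bars of window cover show the order of the loci for each mark. By H3K27ac, Cdh1 (41.9% of its window) was followed by Snai1 (23.5%), Vim (9.09%), Zeb2 (4.26%), Snai2 (1.82%), Zeb1 (1.59%) and Twist1 (0%). By H3K27me3, Snai1 (51.1%) was followed by Vim (39.8%), Twist1 (8.18%), Zeb2 (4%), Zeb1 (1.45%) and then Snai2 and Cdh1 (0%). With 1 library per mark, the spread around these shares is unknown. Of the 25 H3K4me3 regions in the windows, 8 (32.0%) were overlapped by H3K27me3, against 16.0% of the whole H3K4me3 list. Those 8 were 2 of 2 at Twist1, 2 of 3 at Zeb2, 2 of 4 at Snai1, 1 of 2 at Zeb1 and 1 of 3 at Vim, with 0 of 1 at Snai2 and 0 of 10 at Cdh1. H3K27ac overlapped 22 of the 25 H3K4me3 regions, where 82.9% of the whole list had such an overlap, and all 30 H3K27ac regions overlapped H3K4me1 of female WT (whole list 84.2%). Of the 30 H3K27ac regions, 8 (26.7%) were overlapped by H3K27me3 and 5 of these lay in the Snai1 window; the whole-list share was 7.44%.

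Cdh1, the epithelial gene, lay in the window with the largest covered share of H3K27ac, H3K4me3 and female WT H3K4me1 among the 7. H3K27ac covered 71.2 kb in 12 regions, as much as only 0.602% of the 13116 tiles of 170 kb, and H3K4me3 covered 41.8 kb in 10 regions, as much as 0.762% of tiles. The leading H3K4me3 region (chr8:109125801-109137200, 3037 reads) and the leading H3K27ac region (chr8:109126201-109150000, 2780 reads) overlapped each other. All 10 H3K4me3 regions were overlapped by H3K27ac, and no H3K27me3 region was listed, where 50.9% of tiles held 1.

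H3K4me1 at Cdh1 was dense in all 4 lines. It covered 91.8 kb in female WT, 89.6 kb in female KO, 97.6 kb in male WT and 76.6 kb in male KO, and at most 1.62% of tiles had as much in any of these lists. The female KO cover was 0.976 times that of female WT (1.06 with the upper 50% of each list, 1.03 with equal numbers and 1.12 with the window widened by 50 kb), and the male ratio was 0.785. Around the leading H3K4me3 region each line had a very long H3K4me1 region, of 46.2 kb with 3839 reads in female WT, 36.6 kb with 2596 reads in female KO, 44.8 kb with 5099 reads in male WT and 44.2 kb with 4202 reads in male KO. A smaller element at chr8:109223801-109226600 was listed in both WT lines (79 reads in female WT and 146 in male WT) and in neither KO line.

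Read against other windows, the female Cdh1 ratio was high. Of the 212 tiles with at least as much H3K4me1 in female WT, 90.6% had a ratio no higher than Cdh1, and their median ratio was 0.478. For the male pair, 65.0% of 117 such tiles had a ratio no higher. Among all tiles of 170 kb with any WT H3K4me1, 73.1% of 9234 had a female ratio no higher than Cdh1. For the male ratio it was 56.0% of 10763. At Cdh1, 8 of the 11 female WT regions overlapped a female KO region, and these 8 were the ones with H3K27ac in female WT; the 3 regions without it had no overlap.

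**Figure D2:**
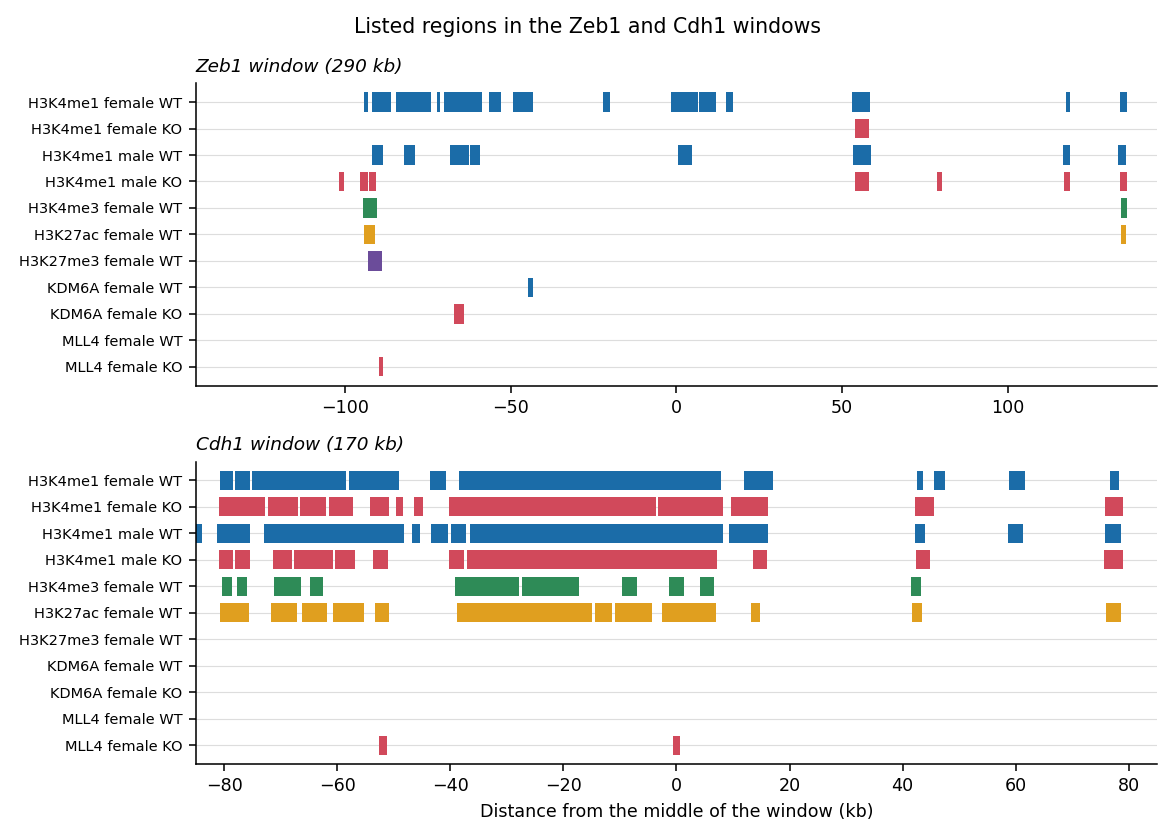
Listed regions of the 11 lists along the Zeb1 and Cdh1 windows, drawn as bars on a horizontal axis of distance from the middle of the window in kb. At Zeb1 the female KO line has 1 H3K4me1 bar against 14 in female WT, and at Cdh1 long H3K4me1 bars stand in all 4 lines, with no H3K27me3 bar.

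Zeb1 showed the lowest female KO to WT ratio of the 7 windows with the full lists. With the upper 50% of each list it was 0.0709, above the 0 of Snai2. H3K4me1 covered 66.2 kb in 14 regions in female WT and 4 kb in 1 region in female KO, a ratio of 0.0604 (0.0980 with the window widened by 50 kb). H3K4me1 covered 29.4 kb in male WT and 15.2 kb in male KO, a ratio of 0.517. The male ratio was 0.222 in the central 50% of the window, 0.275 with the upper 50% of each list and 0.559 with the window widened. Both KO lines were therefore below their WT line by more than 1.5 times, the fold used as the threshold here, and female WT had the most H3K4me1 of the 4 lines. Of the 1190 tiles of 290 kb with at least as much H3K4me1 in female WT, 33 (2.77%) had a ratio as low as Zeb1 and the median ratio was 0.627. For the male pair, 30.1% of 3240 such tiles had a ratio as low. Among all tiles of 290 kb with any WT H3K4me1, 18.9% of 6108 had a female ratio as low as Zeb1. For the male ratio it was 34.7% of 7026.

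The regions absent from female KO lay mainly in the stretch chr18:5590601-5702000 of the Zeb1 window. Its borders were drawn around the window's opening run of consecutive female WT regions without overlap in female KO. The lack of overlap between the female lists in this stretch therefore follows from how it was drawn. Female WT had 11 regions there, which covered 57.4 kb with 32 to 485 reads each, and female KO had 0. Male WT had 5 regions over 19.4 kb and male KO had 2 over 3.2 kb. The region with the most reads in female WT without overlap in female KO was chr18:5614801-5626400, with 485 reads, more than 93.5% of its list. Of the 3639 female WT regions with at least 485 reads, 17.2% had no overlap in female KO. In male WT the same place held 2 regions, led by chr18:5616801-5622400 with 231 reads, and male KO had none.

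An element farther along was listed in all 4 lines. The only female KO region of the window, chr18:5739001-5743000 with 131 reads, was also listed with 225 reads in male KO and overlapped a region of 296 reads in female WT and of 354 reads in male WT. Merged over the 4 lists, the Zeb1 window had 16 H3K4me1 regions, of which 6 were listed in female WT alone, 3 in both WT lines and no KO line, 3 in both WT lines and male KO, and 1 in all 4 lines. Female WT alone is the most frequent pattern at Zeb1; over all 7 windows it held 12 of 63 merged regions, against 10.7% of the genome's.

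H3K4me3 at Zeb1 in female WT had a main region at chr18:5590401-5594600 with 1154 reads and a smaller one at chr18:5819201-5820800 with 172 reads. H3K27ac overlapped both, with 114 reads in its region at chr18:5590801-5594000 and 46 reads in the other. H3K27me3 had a region at chr18:5592001-5596200 with 132 reads, which shared 2.6 kb with the main H3K4me3 region. The H3K4me1 stretch absent from female KO began inside this H3K4me3 region and ran on beyond it. None of the 3 female WT H3K4me1 regions with H3K27ac was overlapped in female KO. These 3 H3K27ac-bearing regions at Zeb1 had 38, 198 and 73 reads.

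Zeb2 had less H3K4me1 in female KO and, over the whole window, nearly the same in both male lines. Cover was 33.4 kb in female WT and 19 kb in female KO (ratio 0.569). In the male lines it was 32.8 kb in WT and 31.4 kb in KO (ratio 0.957). The male ratio was 1.05, 1.07 and 1.14 under the upper 50%, equal numbers and the widened window. It was 0.667 in the central 50% of the window. The direction of the female ratio depended on the list cut-off: it was 1.31 with the upper 50% of each list by reads 1.58 with both lists cut to equal numbers and 0.306 in the central 50% of the window. Of the 15 female WT regions 4 overlapped a female KO region, and the other 11 had 42 to 112 reads each. The leading H3K4me1 region lay near chr2:44871201-44877200 in all lines, with 145 reads in female WT, 204 in female KO, 212 in male WT and 448 in male KO, and it overlapped the leading H3K27ac region (147 reads).

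The H3K4me3 regions of Zeb2 were largely under H3K27me3. The leading H3K4me3 region, chr2:44963801-44968800, had 963 reads, and a neighbour at chr2:44971201-44973400 had 227. H3K27me3 regions of 124 and 111 reads overlapped both, with 5.6 kb shared. An H3K27ac region of 77 reads overlapped the leading region too. The remaining H3K4me3 region, chr2:44874601-44876000 with 61 reads, had H3K27ac and no H3K27me3. At the neighbour, H3K4me1 was listed in female KO (chr2:44971201-44973800, 75 reads) and male KO (chr2:44972001-44973800, 55 reads) and in neither WT line. A WT element showed the opposite pattern at chr2:44899601-44902800 (112 reads in female WT), which overlapped a male WT region of 182 reads and no KO region.

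Snai1 combined strong H3K4me3 with a broad H3K27me3 domain. H3K4me3 peaked at chr2:167315001-167320600 with 2314 reads and at chr2:167327001-167332600 with 2232 reads, both with H3K27ac and without H3K27me3. The smaller ones, chr2:167362601-167364800 with 303 reads and chr2:167368801-167369800 with 45 reads, lay under H3K27me3 and were overlapped by H3K27ac as well. H3K27me3 covered 56.2 kb of the window, and 8.67% of the 110 kb tiles had as much. Its leading region, chr2:167406001-167431200, had 760 reads. Which of these regions lies at the Snai1 start and which at a neighbour was not established.

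H3K4me1 in the Snai1 window was lower in both KO lines. Cover was 50 kb in female WT and 25.8 kb in female KO (ratio 0.516), and 42.8 kb in male WT and 31 kb in male KO (ratio 0.724). The female pair thus passed 1.5 times and the male pair did not. The female ratio was 0.417 with the upper 50%, 0.611 with equal numbers, 0.661 with the window widened and 0.170 in its central 50%. In the same order of settings the male ratio was 0.949, 0.756, 0.851 and 0.855, so the male drop was small in some of them. The regions without overlap in female KO were led by chr2:167375401-167381400 with 316 reads; male WT (372 reads) and male KO (398 reads) had regions there. A place inside the H3K27me3 domain, chr2:167410201-167414200 with 225 reads in female WT, was listed with 271 reads in male WT and in neither KO line. Of the 13 female WT regions 9 overlapped H3K27me3, and 3 of those 9 overlapped a female KO region.

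**Figure D3:**
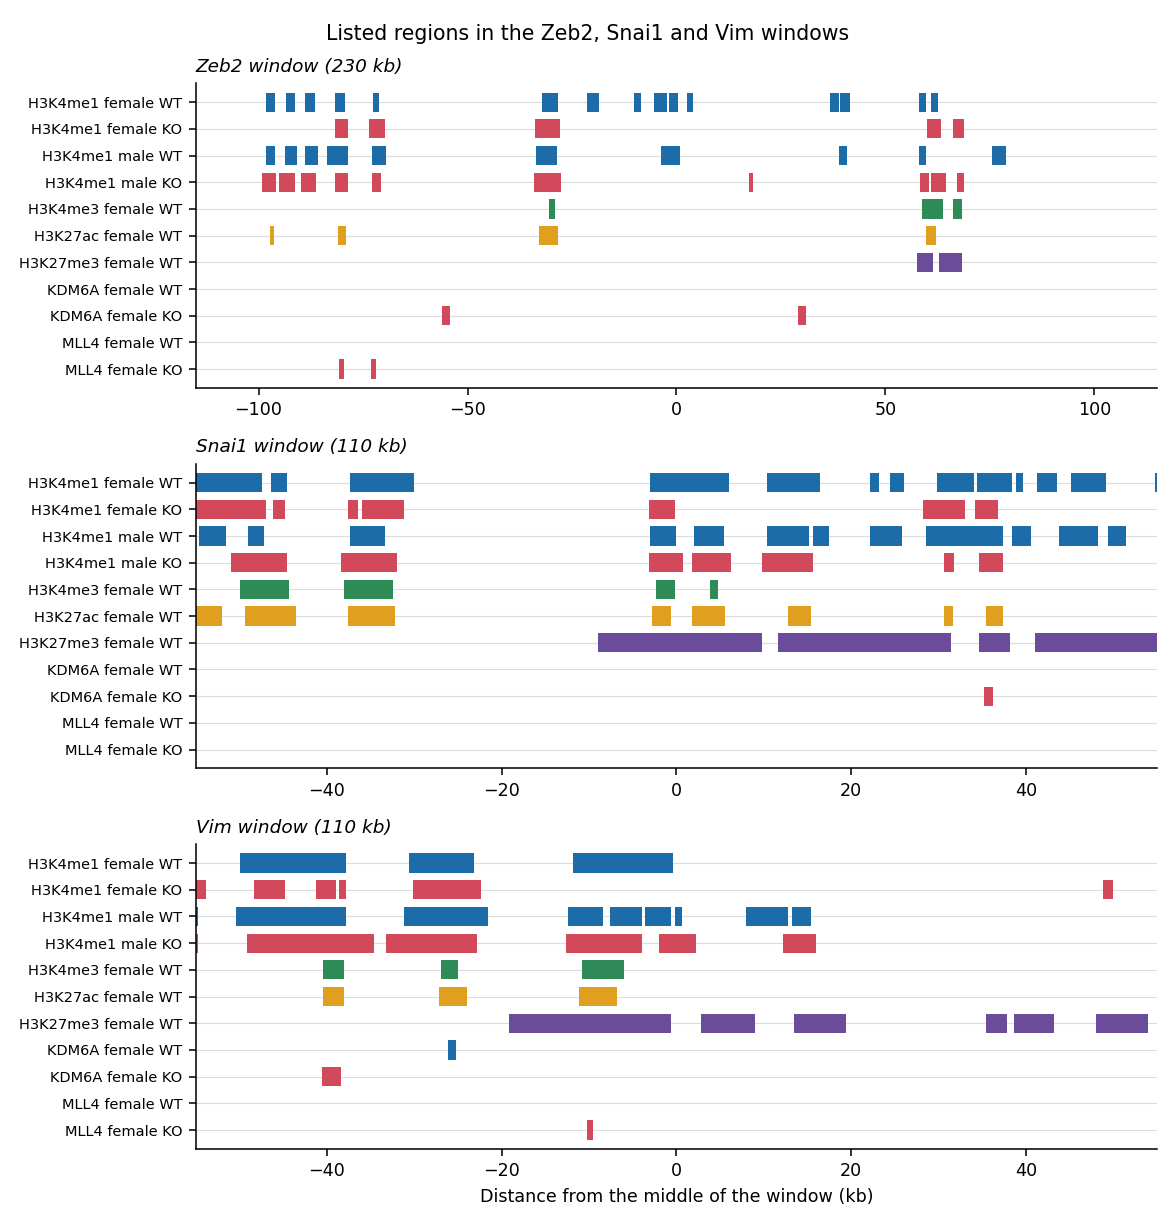
Listed regions along the Zeb2, Snai1 and Vim windows, as bars against distance from the middle of the window in kb, for the 11 lists. The H3K27me3 bars fill 51.1% of the Snai1 window and 39.8% of the Vim window, and the H3K4me1 bar near the middle of the Vim window is listed in female WT, male WT and male KO and not in female KO.

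Snai2 was a compact locus with a single H3K4me3 region, chr16:14704201-14708200 (464 reads), a small H3K27ac region within it (64 reads) and no H3K27me3, KDM6A or MLL4 region. All 4 lines had H3K4me1 around it. Female WT had 2 regions of 143 and 185 reads over 8 kb, and female KO had 2 of 43 and 80 reads over 4.2 kb. Male WT had 2 regions of 137 and 159 reads over 6 kb, and male KO had 1 of 376 reads over 8.2 kb. The female ratio of cover was 0.525 and the male ratio 1.37, so the KO line was lower in the female pair and higher, within 1.5 times, in the male pair. The male ratio was 2.05 with the window widened by 50 kb, and the female one was 0 with the upper 50% of each list. Merged over the lists, this was 1 region present in all 4 lines.

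Twist1 had the least H3K4me1 cover of the 7 windows in female WT, and part of its regions differed in place between genotypes. H3K4me3 lay at chr12:34641601-34644600 (287 reads) and chr12:34651201-34653600 (83 reads), and H3K27me3 regions of 117 and 79 reads covered 92.6% of it. At one end of the larger H3K4me3 region, H3K4me1 was listed in both KO lines and in neither WT line. The regions were chr12:34644001-34646200 in female KO (68 reads) and chr12:34643201-34646400 in male KO (159 reads). They overlapped that H3K4me3 region by 600 and 1400 bp and ran on beyond it. Farther along, chr12:34670201-34672600 in female WT (51 reads) and chr12:34670001-34674000 in male WT (207 reads) overlapped each other and no KO region. Each genotype thus had a Twist1 element listed in both sexes and not in the other genotype. Among regions with at least as many reads as these elements, lack of overlap was common in female WT (47.0%) and less so in male WT (19.9%), female KO (15.2%) and male KO (8.01%). Another place, chr12:34658201-34660200, was listed in male WT (58 reads) and male KO (59 reads), and 2 further regions of 68 and 63 reads were listed in male WT alone. Total cover was 2.4 kb in female WT, 2.2 kb in female KO, 9.2 kb in male WT and 4.8 kb in male KO, with ratios of 0.917 and 0.522. Neither ratio was firm: the female one was 2.58 with the window widened by 50 kb. The male one was 1.20 with lists cut to equal numbers, 0.800 with the upper 50% of each list and 0.787 in the central 50% of the window.

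**Figure D4:**
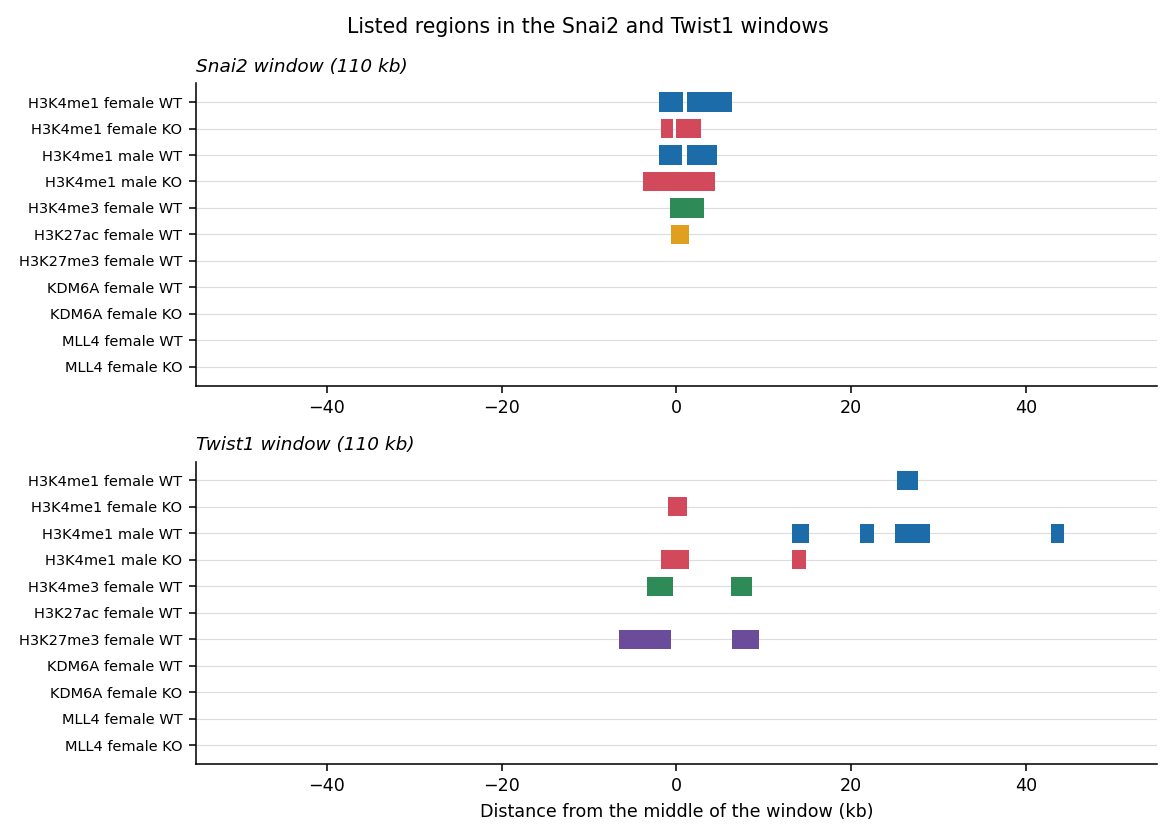
Listed regions along the Snai2 and Twist1 windows, as bars against distance from the middle of the window in kb, for the 11 lists. At Snai2 all H3K4me1 bars surround the H3K4me3 bar. At Twist1 the KO bars of 68 and 159 reads overlap the right end of an H3K4me3 and an H3K27me3 bar. The WT bars of 51 and 207 reads stand farther to the right.

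The places listed in both KO lines and no WT line were 2 of the 63 merged H3K4me1 regions of the windows (background 2.16%), 1 at Zeb2 and 1 at Twist1. Both overlapped H3K4me3 and H3K27me3 of female WT. Over the genome, 48.0% of the 1674 merged regions of this kind overlapped H3K4me3 and 11.4% overlapped both marks. The shares were 3.63% and 1.06% of the 9275 listed in both WT lines and no KO line. None of the 10 places of the latter kind in the windows overlapped H3K4me3. They were 3 at Zeb1, 2 each at Zeb2, Snai1 and Cdh1, and 1 at Twist1, or 15.9% of the 63 against a background of 12.0%. Regions listed in all 4 lines were 18 of the 63 (28.6%, background 24.0%), and those in both WT lines and male KO were 8 (12.7%, background 8.05%).

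Vim, the mesenchymal marker, had 3 H3K4me3 regions, 3 H3K27ac regions and 6 H3K27me3 regions in its window. The leading H3K4me3 region, chr2:13494201-13499000 (754 reads), overlapped the leading H3K27ac region, chr2:13493801-13498200 (177 reads), and the leading H3K27me3 region, chr2:13485801-13504400 (631 reads). All 3 marks thus met there in 1 line. The 2 other H3K4me3 regions, chr2:13464601-13467000 (601 reads) and chr2:13478001-13480000 (71 reads), had H3K27ac and no H3K27me3. H3K27me3 covered 43.8 kb, and 12.4% of the 110 kb tiles had as much.

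At the Vim element under all 3 marks the female lines differed. Female WT had an H3K4me1 region of 11.4 kb with 418 reads, chr2:13493201-13504600, and female KO had none there, while male KO had chr2:13492401-13501000 with 460 reads and male WT had 3 regions of 140 to 192 reads. Of the 4630 female WT regions with at least 418 reads, 18.5% had no overlap in female KO. Cover in the window was 31 kb in female WT and 16.8 kb in female KO (ratio 0.542, with 0.325 in the central 50% of the window and 0.290 with the upper 50% of each list), and 40.8 kb in male WT and 41.8 kb in male KO (ratio 1.02). Elsewhere in the window the female lists overlapped in part. The female WT region chr2:13455001-13467200 (12.2 kb, 568 reads) shared 6600 bp with 3 female KO regions of 25, 86 and 100 reads, and the region of 439 reads in female WT overlapped a female KO region of 324 reads. Female KO also had chr2:13553801-13555000 (30 reads), which no other line had.

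Set side by side, H3K4me1 cover in female KO was lower by more than 1.5 times at 5 of the 7 loci, Zeb1, Zeb2, Snai1, Snai2 and Vim, and at none was it higher by that much. The count was 4 with the upper 50% of each list, with equal numbers and with widened windows, and 1 at a threshold of 2 times. Zeb2 with equal numbers (1.58) and Twist1 with the window widened (2.58) were higher by more than 1.5 times. Of tiles of 110, 170, 230 and 290 kb, 53.0%, 52.8%, 53.1% and 52.7% were lower in female KO and 18.6%, 17.3%, 16.1% and 15.6% were higher, and the 5 loci are to be read against these shares. In male KO, cover was lower by more than 1.5 times at 2 loci, Zeb1 and Twist1 (1 locus with the upper 50% of each list or equal numbers, where Twist1 no longer counted), against 43.4%, 42.7%, 42.5% and 42.4% of such tiles, and at none higher, against 23.3%, 22.2%, 21.1% and 20.1%. Among tiles of these lengths that held H3K4me3, 43.7% to 47.6% were lower in female KO and 32.6% to 36.2% in male KO. By the ratio of the female pair the order was Zeb1 (0.0604), Snai1 (0.516), Snai2 (0.525), Vim (0.542), Zeb2 (0.569), Twist1 (0.917) and Cdh1 (0.976). By that of the male pair it was Zeb1 (0.517), Twist1 (0.522), Snai1 (0.724), Cdh1 (0.785), Zeb2 (0.957), Vim (1.02) and Snai2 (1.37). Zeb1 was lowest in both orders, though beside Twist1 in the male one. This rank depended on the setting too. With windows widened by 50 kb the male ratio was 0.559 at Zeb1 and 0.526 at Twist1. With the upper 50% of each list the female ratio was 0.0709 at Zeb1 and 0 at Snai2. Some of the other ratios turn with the list cut-off or the window: the female ratio was 1.31 or 1.58 at Zeb2 and 2.58 at Twist1, and the male ratio 1.20 at Twist1, under the settings given with each locus, which would place these above Cdh1. With 1 library per line, no neighbours in these orders can be said to differ.

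Outside Zeb1 and Cdh1, the female ratios lay in the middle range of tiles with at least the WT cover of the locus. Of such tiles, 45.3% had a female ratio as low as Zeb2, 46.9% as low as Snai1 and 44.8% as low as Snai2. The shares were 70.2% for Twist1 and 45.5% for Vim. At Twist1, where WT cover was small, such tiles were 11162 of the 12770 with any female WT cover. In the male pair the shares were 76.3% for Zeb2, 53.6% for Snai1, 88.4% for Snai2, 36.7% for Twist1 and 86.3% for Vim, so most such tiles had a lower male ratio than Snai2, Vim and Zeb2.

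**Figure D5:**
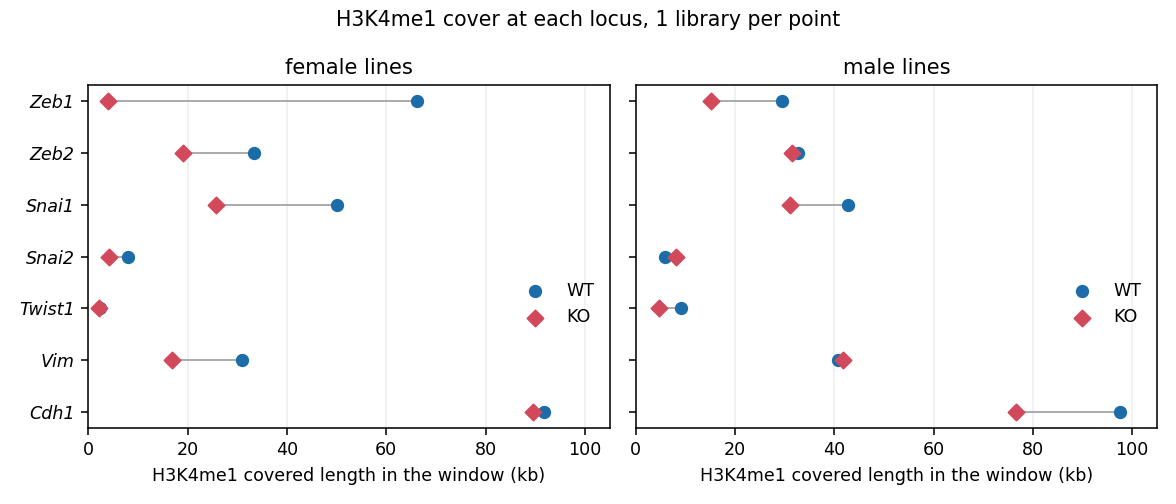
H3K4me1 covered length in kb on the horizontal axis for each of the 7 loci, with WT as circles and KO as diamonds joined by a line, female lines on the left and male lines on the right, 1 library per point. The longest line is at Zeb1 in the female pair, from 66.2 kb to 4 kb, and both Cdh1 pairs lie to the right of all other loci.

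Summed over the windows, H3K4me1 covered 282.8 kb in female WT and 161.6 kb in female KO, a ratio of 0.571 beside 0.671 for the whole lists. In the male lines it covered 258.6 kb and 209 kb, a ratio of 0.808 beside 0.759. Of the 59 female WT regions 23 (39.0%, 95% exact Clopper-Pearson interval 26.5% to 52.6%) overlapped a female KO region and 36 did not. In the whole list 48.9% overlapped and 51.1% did not. Of the 56 male WT regions 36 (64.3%, 50.4% to 76.6%) overlapped a male KO region. The whole-list shares were 58.0% with overlap and 42.0% without. In the other direction, 30 of 34 female KO regions (88.2%, 72.5% to 96.7%) overlapped female WT. For male KO regions it was 37 of 44 (84.1%, 69.9% to 93.4%). Of the whole KO lists, 76.6% in female and 74.6% in male had an overlap, and 23.4% and 25.4% had none. These intervals cover counting error only, and neighbouring regions are not independent. Zeb1 (1 of 14) and Cdh1 (8 of 11) were far apart in the share of female WT regions overlapped in KO.

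Overlap with the KO list was set beside acetylation in female WT. Female WT H3K4me1 regions with H3K27ac overlapped a female KO region in 21 of 27 cases (77.8%, whole list 82.3%), and those without it in 2 of 32 (6.25%, whole list 18.7%). Only 4 loci had regions of both kinds. With H3K27ac and without it, the counts were 8 of 8 and 0 of 3 at Cdh1, 6 of 7 and 0 of 6 at Snai1, 3 of 4 and 1 of 11 at Zeb2, and 0 of 3 and 1 of 11 at Zeb1. Zeb1 thus did not share the pattern of the other 3 loci. For male WT regions the shares were 25 of 26 (96.2%, whole list 91.6%) with that H3K27ac and 11 of 30 (36.7%, whole list 32.9%) without it. Both male WT regions at Zeb1 with H3K27ac overlapped a male KO region.

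Across the 7 windows, KDM6A had 2 regions in female WT and 5 in female KO, and MLL4 had 0 and 6. KDM6A was listed in female WT at 2 of the 7 loci, Zeb1 and Vim, where 11.4% to 21.4% of tiles held such a region, and in female KO at 4, Zeb1, Zeb2, Snai1 and Vim, against 18.7% to 31.3% of tiles. These counts were 0 in WT with the upper 50% of the list by reads and 2 in KO in the central 50% of the windows. MLL4 was listed in female WT at 0 loci, against 9.02% to 17.6% of tiles, and in female KO at 4, Zeb1, Zeb2, Vim and Cdh1, against 30.6% to 46.4%. With the KO list cut to the number of the WT list, MLL4 was listed in KO at 0 loci as well. Among tiles with H3K4me3, a mark that all 7 windows held, the shares with a region were higher. They were 15.2% to 26.3% for KDM6A in WT and 24.3% to 37.5% in KO. For MLL4 they were 12.7% to 22.2% in WT and 40.7% to 55.3% in KO. None of the 2 WT and 5 KO KDM6A regions overlapped between genotypes, and in the whole lists 91.0% and 95.6% had no overlap either. The KO line, labelled as lacking KDM6A, thus had listed KDM6A regions, so a KDM6A region here is given as listed and not as bound protein.

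In female WT the Zeb1 region, chr18:5640201-5641600 with 43 reads, lay inside female WT H3K4me1 and outside the 3 other H3K4me1 lists. The Vim region, chr2:13478801-13479800 with 37 reads, lay inside H3K4me3, H3K27ac and the H3K4me1 of all 4 lines. The list median was 44 reads, and the Zeb1 region had more reads than 43.8% of the list and the Vim region than 20.8%. In female KO the KDM6A regions were chr18:5617801-5620800 at Zeb1 (73 reads), chr2:44849001-44850800 (44 reads) and chr2:44934001-44936000 (52 reads) at Zeb2, chr2:167400201-167401200 at Snai1 (31 reads) and chr2:13464401-13466600 at Vim (54 reads). The Zeb1 region had more reads than 92.4% of its list and the Snai1 region than 7.95%. Of these, the Zeb1 region lay within the H3K4me1 stretch that was listed in female WT and not in female KO.

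The 6 MLL4 regions of female KO had 25 to 49 reads, beside a list median of 40. At Cdh1, chr8:109112401-109113800 (46 reads) and chr8:109164401-109165600 (49 reads) had the most, and both lay inside H3K27ac and the H3K4me1 of all 4 lines. At Zeb1, chr18:5595201-5596400 (37 reads) lay where female KO had no H3K4me1 region. Zeb2 had chr2:44824201-44825400 (43 reads) and chr2:44831801-44833000 (29 reads), both inside female KO H3K4me1. Vim had chr2:13494801-13495400 (25 reads), which, as at Zeb1, lay where female KO had no H3K4me1 region. In the whole MLL4 list of female KO, 95.2% of regions had no overlap in female WT, which had 2130 regions against 13152.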

How the data were processed

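The libraries were chromatin immunoprecipitation sequencing from 12 samples, of which 11 came with a region list. The remaining library, labelled as input and IgG of female WT, had no list used here. The submitters' processing notes name Bowtie 1.1.2, SICER 1 and the build mm9 but not what each was used for. The authors' deposited lists give a chromosome, start, end and a whole number, read here as a count of sequencing reads per region, although no header names this column. Borders lie on steps of 200 bp. Controls, thresholds of significance and mapped depth are not given in the sources used here, and a region that is not listed may hold signal below the threshold.

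Samples were grouped by the antibody, sex and genotype in their titles. A region was a member when at least 1 bp overlapped a window, and cover was counted inside the window. Regions were shared when they overlapped by at least 1 bp. A locus was called lower or higher when cover differed by over 1.5 times, and tiles of the same length that held a region of any list gave the background. Shares carry Clopper-Pearson intervals at 95%. Named regions were the leading region by reads of each list and locus, and those with the most reads without overlap in the other genotype; other regions that the text singles out were chosen after their values were seen. Members and lists were chosen with earlier results of these data known. Promoters came from RefSeq, GRCm38.p6.

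Python 3.11.15, numpy 2.4.6, pandas 2.3.3, scipy 1.17.1 and matplotlib 3.10.9 were used. Overlaps were tested on simulated data with known counts, which were recovered, and checked with bedtools 2.31.1. Alternatives were the upper 50% of each list by reads, lists cut to equal numbers, neighbours within 5 kb merged, overlap of 50% of a region, windows widened by 50 kb, their central 50%, and a threshold of 2 times.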

Additional observations from a re-analysis of the deposited data

Results flagged for a closer look

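At Snai2 the ratio of H3K4me1 cover, KO over WT, was 0.525 in the female pair and 1.37 in the male pair, so the pairs lay on opposite sides of equal cover. The difference between the pairs was not tested, since each line is 1 library.

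At Vim the ratio was 0.542 in the female pair and 1.02 in the male pair. That difference was not tested either. The female ratio rests in part on the region of 418 reads at chr2:13493201-13504600, which has no counterpart in female KO.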

How the results depend on the processing

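Of 55 recomputed summary values 41 were within the tolerance set for them and 14 moved. The share of female WT regions overlapped in KO was 53.1% with lists cut to the same number and 57.1% with neighbours within 5 kb merged, and that of female KO regions in WT was 70.6% with lists cut to the same number. Loci lower in female KO numbered 1 at a threshold of 2 times. Loci lower in male KO numbered 1 with the upper 50% of each list, 1 with lists cut to the same number and 0 at 2 times. Loci with KDM6A in WT numbered 0 with the upper 50%, and with KDM6A in KO 2 in the central 50% of the windows. Loci with MLL4 in KO numbered 2 with the upper 50%, 0 with lists cut to the same number and 2 in the central 50%. Loci with H3K27me3 numbered 3 with the upper 50% and 3 in the central 50%. The Zeb2 female ratio reversed to 1.31 with the upper 50% and 1.58 with lists cut to the same number, and the Twist1 male ratio to 1.20 with lists cut to the same number. In the central 50% of the windows the female ratio was 0.306 at Zeb2, 0.170 at Snai1 and 0.325 at Vim, and the male ratio at Zeb1 was 0.222. With the upper 50% it was 0.290 at Vim and 0 at Snai2 in the female pair and 0.275 at Zeb1 in the male pair. With windows widened by 50 kb it was 2.58 at Twist1 in the female pair and 2.05 at Snai2 in the male pair. The Zeb1 female ratio stayed between 0.0604 and 0.0980. Among 110 kb tiles with H3K4me3, 43.7% were lower in female KO and 32.6% in male KO. For tiles of 170 to 290 kb with H3K4me3 the shares were 45.8% to 47.6% and 34.3% to 36.2%. The cause of these shifts was not tested. Cutting to the same number was not run for H3K4me3, H3K27ac and H3K27me3, which have no pair, and gave no female ratio at Twist1, nor did the upper 50%, because WT had no cover there. Calls depend on depth and on the threshold behind each list, neither of which is known. No paired analysis was possible because each group holds 1 library and no comparison was tested.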
